A study of Homo sapiens with 4 samples.

Results

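The kinesin genes were taken as the protein-coding rows of the deposited gene table whose symbol is KIF with a number, or KIFC1 to KIFC3, which gave 42 of 58735 genes. By known role, 15 of them were counted as mitotic kinesins, 15 as transport kinesins, and 12 as cilium and other kinesins. The messenger RNA came from Myla, a cell line established from mycosis fungoides, which is a T cell lymphoma of the skin. Both groups were transduced with a lentiviral vector and are labelled wild type. The vector carried a short hairpin RNA against FOXM1 in the shFOXM1 group (2 libraries) and a scrambled hairpin in the shControl group (2 libraries). Cells grew in medium with 10% serum at 37 °C and 5% CO2, received 10 uL of virus medium per 1 mL of culture, had their medium changed after 24 h, and were lysed for RNA another 72 h later. An untransduced group was not analysed here. It is not stated whether both shFOXM1 libraries carried the same hairpin or whether the cultures were transduced separately. The p-values thus speak only of how far these 4 libraries scatter, and that scatter may be technical.

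Kinesins are motor proteins that use ATP to move along microtubules or to take their ends apart. Some are made mainly in dividing cells, where they separate the spindle poles, line up the chromosomes and finish cytokinesis, and others carry vesicles, organelles and messenger RNA in cells of any kind. FOXM1 is a forkhead transcription factor of dividing cells. It joins the MuvB complex and MYBL2 at promoters that hold a cell cycle homology region (CHR), and many mitotic kinesins are known members of that programme. The comparison of shFOXM1 with shControl asks how each class of motor stands when FOXM1 is knocked down.

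FOXM1 itself stood at 26.5 and 27.6 FPKM in the controls and at 9.27 and 5.59 FPKM in the shFOXM1 pair. FPKM is the number of fragments per kilobase of gene, scaled by sequencing depth, and values are given throughout in the order shControl 1 and 2, then shFOXM1 1 and 2. Both libraries labelled shFOXM1 lay far below both controls, and the log2 fold change was -1.77 (SE 0.23; limma, adjusted p = 0.173). The recovered reads numbered 14147084 to 15017728 per library. In the deposited values a single read per 1 kb of gene equals 0.0656 to 0.0705 FPKM, which follows the authors' own scaling totals and not exactly these read totals. The scatter was wider within shFOXM1: the log2 difference between its libraries had a standard deviation of 0.424 over all genes tested, against 0.263 between the controls. The T cell markers CD3D (125, 118, 95.1 and 154 FPKM), CD2, CD3G, TRAC, PTPRC and CD28 were measured. CD4 had 0 reads, and CD3E, CD5 and CD7 were also among the 4 of 10 T cell markers that stayed under 1 FPKM. Summed markers of B cells, monocytes, fibroblasts, keratinocytes and neurons reached at most 13.6 FPKM in any library, against 227 to 261 FPKM for T cells.

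Of the 42 kinesin genes, 28 reached 1 FPKM in at least 2 libraries and were tested: 13 mitotic, 11 transport and 4 other kinesins. All 28 reached 1 FPKM in at least 1 library of each group. The mitotic motors stood lower in shFOXM1 almost throughout: all 13 had a lower mean, and for 12 both shFOXM1 libraries lay below both controls. Of all 12033 genes tested, 49.3% had a lower mean and 25.9% were lower without overlap. The transport motors were divided, with 6 higher (50.7% of all genes) and 5 lower by mean, 4 higher and 1 lower without overlap, beside 27.3% of all genes higher without overlap. Each of the 4 other motors had a lower mean, 3 of them without overlap.

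None of these differences passed the threshold, which was a Benjamini-Hochberg adjusted p under 0.05 over all genes tested. Limma called 0 of 28 kinesins and 0 of 12033 genes (0.0%). At an unadjusted p under 0.05 limma gave 10 mitotic kinesins lower (8.99% of all genes tested) and 1 transport kinesin higher (8.82% of all genes tested). The voom method on recovered reads also called 0 kinesins, with 11 lower and 2 higher at an unadjusted p under 0.05, beside 9.32% and 9.33% of all genes tested. The median log2 fold change was -0.56 over the mitotic kinesins, 0.09 over the transport kinesins and -0.25 over the other kinesins, against -0.00075 over all genes tested.

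**Figure D1:**
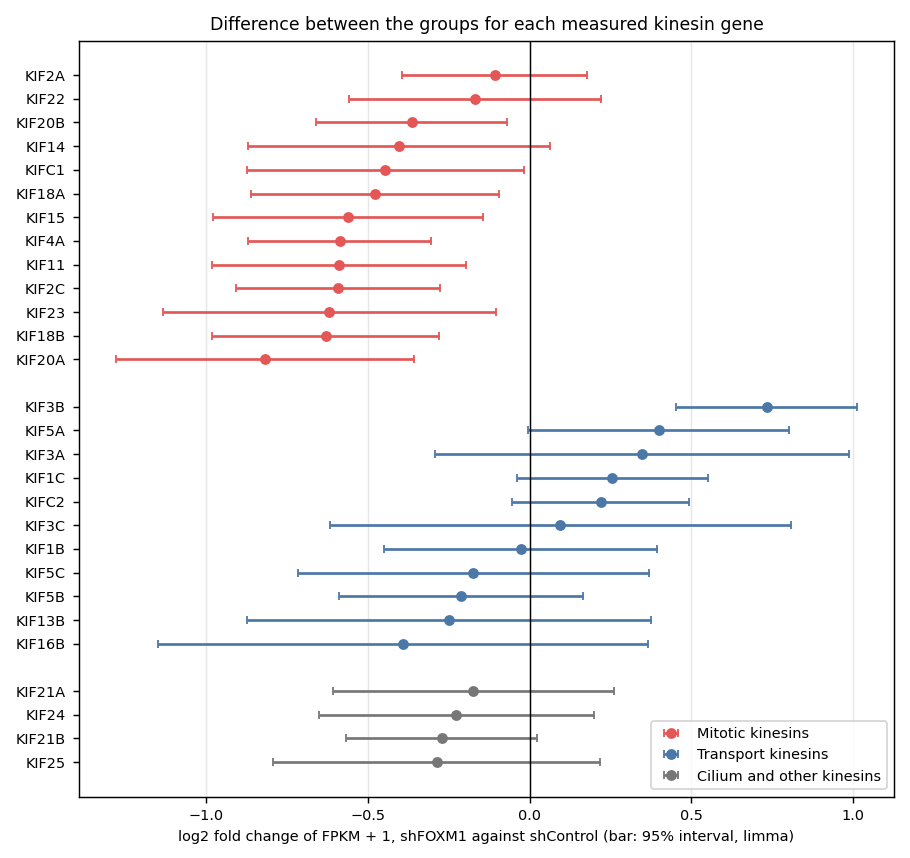
Log2 fold change (shFOXM1 minus shControl, on the log2(FPKM + 1) scale) of the 28 measured kinesin genes, with the 95% confidence interval of the limma fit, ordered within the mitotic, transport and other classes. The mitotic genes lie between -0.82 and -0.11, while KIF3B stands at 0.73 among the transport genes.

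The promoters of the mitotic kinesins are shown first, because most of them share a pair of short motifs. RefSeq windows of 300 bases around the transcription start (250 before to 50 after, GRCh38.p14) matched 34 of the 42 genes. They were searched on both strands for the CHR (TTTGAA or TTCGAA), the CCAAT box bound by NF-Y, a forkhead motif (TGTTTAC or TGTTTGC) and an E2F motif (TTCCCGC or TTGGCGC). A CHR was found in 11 of 15 mitotic kinesins (73.3%), in 1 of 11 transport kinesins (KIF5B) and in 1 of 8 other kinesins (KIF24), while 19.5% of all genes with a window, and 15.0% of the genes tested that have one, held it (16.4% of all 35116 windows). Both a CHR and a CCAAT box were found in 10 of 15 mitotic kinesins, or 66.7%, against 7.85% of all genes with a window and 6.58% of those tested. The pair is not particular to the kinesins. Of the measured genes listed below as partners of mitotic kinesins, 8 of 10 with a window held both (80.0%). Among the measured proliferation markers it was 2 of 8 (25.0%). The stretches below run 5′ to 3′ along the gene's strand from 100 bases before to 10 bases after the start, with the CHR and the CCAAT box in capitals. On the opposite strand these read TTCAAA and ATTGG. They lie in GRCh38.p14, KIF11 at chr10:92593030-92593139 (plus strand), KIF4A at chrX:70290004-70290113 (plus strand), KIF22 at chr16:29790651-29790760 (plus strand), KIF18A at chr11:28108147-28108256 (minus strand), KIF18B at chr17:44947764-44947873 (minus strand), KIF14 at chr1:200620742-200620851 (minus strand) and KIF23 at chr15:69414249-69414358 (plus strand).
KIF11: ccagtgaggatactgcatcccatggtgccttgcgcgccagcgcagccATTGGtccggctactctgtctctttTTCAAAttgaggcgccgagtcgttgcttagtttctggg
KIF4A: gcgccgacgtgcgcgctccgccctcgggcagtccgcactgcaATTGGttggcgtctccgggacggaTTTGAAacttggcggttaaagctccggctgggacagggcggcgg
KIF22: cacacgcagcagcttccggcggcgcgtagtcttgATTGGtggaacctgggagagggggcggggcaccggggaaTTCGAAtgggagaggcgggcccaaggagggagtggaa
KIF18A: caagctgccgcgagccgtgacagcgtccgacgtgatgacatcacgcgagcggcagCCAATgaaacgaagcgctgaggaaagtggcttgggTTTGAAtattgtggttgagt
KIF18B: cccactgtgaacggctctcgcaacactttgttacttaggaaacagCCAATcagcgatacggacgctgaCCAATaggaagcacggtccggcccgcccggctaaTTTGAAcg
KIF14: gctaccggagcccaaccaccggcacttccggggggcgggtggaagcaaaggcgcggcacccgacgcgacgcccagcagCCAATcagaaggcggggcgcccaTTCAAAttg
KIF23: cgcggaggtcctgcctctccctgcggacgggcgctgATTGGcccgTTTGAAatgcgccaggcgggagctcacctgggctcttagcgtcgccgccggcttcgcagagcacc

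In all 7 stretches a CCAAT box came before the CHR, and the CHR lay near the start. These 7 are a selection from the 11 mitotic kinesins with a CHR. In KIFC1, KIF4B and KIF20B a CCAAT box also came before the CHR. There the CHR began after the start, at base 5 in KIFC1, base 4 in KIF4B and bases 25 and 31 in KIF20B. KIF15 had a CHR that began 35 bases before the start and no CCAAT box. The CHR began 28 bases before the start in KIF11, 34 before it in KIF4A, 27 before it in KIF22 and 10 before it in KIF18A. It began 55 bases before the start in KIF23, and just after the start, at base 2 in KIF14 and base 3 in KIF18B. Positions count from the RefSeq start, which for KIF11 and KIF18B lies 156 and 62 bases before the gene's start in the deposited table. On that count KIF18A, KIF23 and KIF20A stood at -152, -103 and -393, where a minus sign places the RefSeq start inside the table's gene. The other genes with a printed stretch lay between -32 and 17. The KIF20A window, with 250 bases before the RefSeq start, did not reach the table's start. In KIF11 and KIF18B the last 20 bases of the window were found in no GENCODE transcript of the gene. Every CHR position, and the lack of a CHR match in KIF20A, holds for the RefSeq start alone. KIF22 carries the TTCGAA form, and the other 6 the TTTGAA form on either strand. The mitotic kinesins whose windows held neither CHR spelling searched were KIF20A, KIF2C, KIF2A and KIF2B. A forkhead motif was found in 0 kinesin genes, against 8.68% of all genes with a window and 6.77% of those tested. An E2F motif was found in 3 of 15 mitotic and 3 of 11 transport kinesins, against 11.0% of all genes with a window and 18.6% of those tested, so the mitotic share lay near that of the tested genes. These matches are letters in a window and do not show binding. For contrast, 3 stretches with neither CHR spelling are given. KIF20A and KIF2C had fold changes among the 4 most negative and KIF3B had the most positive one. They are KIF20A at chr5:138179012-138179121 (plus strand), KIF2C at chr1:44739737-44739846 (plus strand) and KIF3B at chr20:32277551-32277660 (plus strand), in the same build.
KIF20A: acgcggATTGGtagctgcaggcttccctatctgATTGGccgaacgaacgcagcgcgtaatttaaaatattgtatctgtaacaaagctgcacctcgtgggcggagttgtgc
KIF2C: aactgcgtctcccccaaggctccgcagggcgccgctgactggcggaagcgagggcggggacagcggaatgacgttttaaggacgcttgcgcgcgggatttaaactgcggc
KIF3B: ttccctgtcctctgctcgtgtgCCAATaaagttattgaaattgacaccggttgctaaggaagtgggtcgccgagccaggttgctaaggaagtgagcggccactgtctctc

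KIF20A has a pair of CCAAT boxes on the opposite strand, KIF3B has one on its own strand, and the KIF2C stretch has no match to either motif as searched. The KIF20A and KIF2C stretches hold the letters TTTAAA, a spelling close to TTTGAA that was not searched for. KIF22, with a CHR and a CCAAT box, had a log2 fold change of -0.17. KIF20A and KIF2C, with neither CHR spelling searched, had -0.82 and -0.59, but KIF2A, also with neither, had -0.11. The other measured mitotic kinesins with a CHR ran from -0.63 in KIF18B to -0.37 in KIF20B. A link between the motifs and the fold changes was not tested.

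**Figure D2:**
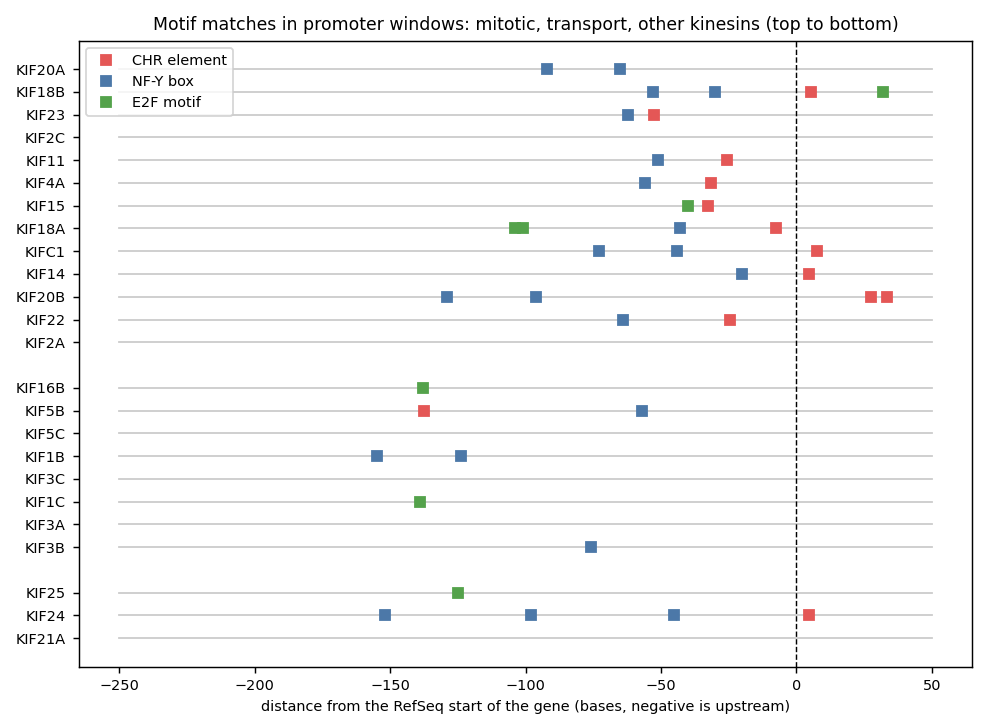
Positions of the CHR, CCAAT box and E2F matches in the first RefSeq promoter window of each measured kinesin gene that has one, in bases from the transcription start, grouped by class. CHR matches fall in 10 of 13 measured mitotic genes and mostly close to the start, and in 1 of 8 measured transport genes with a window.

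The motors that set up a bipolar spindle all stood lower in shFOXM1. KIF11, the tetrameric motor that slides the poles apart, was at 39.3 and 36.1 FPKM in the controls and at 27.9 and 21.9 FPKM in the shFOXM1 pair. The groups did not overlap, and the means were 37.7 ± 2.3 against 24.9 ± 4.2 FPKM (SD, n = 2 each), with a log2 fold change of -0.59 (SE 0.15, 95% interval -0.98 to -0.20; limma, adjusted p = 0.196). KIF15, which can hold the poles apart when KIF11 is blocked, was at 8.33, 7.5, 5.78 and 4.37 FPKM in the same order of libraries. KIFC1, the minus-end motor that gathers microtubules into poles, was at 31.5, 30.4, 25.9 and 19.4 FPKM. Neither gene's groups overlapped, and their log2 fold changes were -0.56 and -0.45, with intervals that left out 0.

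The 3 genes of this role kept their order of abundance in all 4 libraries, with KIF11 above KIFC1 and KIFC1 above KIF15. In each, shFOXM1 2 lay below shFOXM1 1. That order of the shFOXM1 libraries held in 12 of 13 mitotic kinesins, beside 53.3% of all genes tested. FOXM1 itself was lower in shFOXM1 2 as well, and a link between these orders was not tested.

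Among the motors of chromosome arms, KIF4A and KIF22 differed in size. KIF4A, which works with condensin on chromosome arms and with PRC1 at the spindle midzone, was at 11.5 and 11.7 FPKM in the controls against 7.47 and 7.25 FPKM in the shFOXM1 pair. Its replicates were close together, at 11.6 ± 0.147 against 7.36 ± 0.151 FPKM (SD, n = 2 each), and its log2 fold change was -0.59 (SE 0.11, 95% interval -0.87 to -0.30; limma, adjusted p = 0.176). KIF22, which pushes chromosome arms away from the poles, was at 31.5 and 31 FPKM in the controls against 31.4 and 24.4 FPKM in the shFOXM1 pair. It was the mitotic kinesin whose groups overlapped, since shFOXM1 1 lay within the range of the controls, and its interval ran from -0.56 to 0.22. KIF4B, an intronless copy of KIF4A, had 1 or 2 reads in each library. Their transcripts are 95.6% identical over 4343 aligned bases, so a few reads of one could be counted for the other.

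Of the motors that shorten microtubules or hold chromosomes at the spindle equator, 3 of the 4 measured were lower at an unadjusted p under 0.05 in limma. Of all genes tested, 8.99% were lower at that level. KIF2C, which takes apart microtubules at kinetochores and so corrects wrong attachments, was at 27.1 and 27.3 FPKM in the controls against 19 and 16.4 FPKM in the shFOXM1 pair. KIF18B, which shortens the astral microtubules, was at 31.1 and 32.6 against 22.3 and 18.3 FPKM. Neither gene's groups overlapped. The log2 fold change was -0.59 (SE 0.12) for KIF2C and -0.63 (SE 0.14) for KIF18B, each with an adjusted p of 0.183 in limma. KIF18A, which dampens chromosome movements at the equator, was at 4.71 and 4.12 FPKM in the controls against 2.62 and 3.16 FPKM in the shFOXM1 pair, a log2 fold change of -0.48. It was the mitotic kinesin in which shFOXM1 1 was the lower of the shFOXM1 libraries.

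KIF2A, a relative of KIF2C that works at spindle poles and also in cells that do not divide, stood apart from these. It was at 30.1 and 28.7 FPKM in the controls against 28.4 and 26 FPKM in the shFOXM1 pair, and its log2 fold change of -0.11 (95% interval -0.40 to 0.18) was the one nearest 0 among the mitotic kinesins. Its groups were only just apart. KIF2A shares 428 exon bases on the same strand with IPO11, itself at 4.19 to 6.16 FPKM, so reads there could be counted for either. KIF2B, the remaining member, had 0 reads in every library, which allows a level of up to 0.0914 FPKM (3 reads).

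Cytokinesis motors included the mitotic kinesin with the most negative fold change. KIF20A brings the chromosomal passenger complex to the midzone (ENSG00000112984, plus strand of chromosome 5 from 138178719 to 138187715 in GRCh38). It was at 16.9 and 17.1 FPKM in the controls against 10.9 and 7.74 FPKM in the shFOXM1 pair. The controls agreed closely, at 17 ± 0.0898 FPKM, and the shFOXM1 libraries at 9.32 ± 2.23 FPKM (SD, n = 2 each) were both lower. The ratio of shControl to shFOXM1 was 1.82 and the log2 fold change -0.82 (SE 0.18, 95% interval -1.28 to -0.36; limma, adjusted p = 0.183). KIF23, the motor of the centralspindlin complex, was at 15.2, 15.4, 11.7 and 7.85 FPKM in the 4 libraries, without overlap and with a log2 fold change of -0.62 (SE 0.20). KIF20B, which acts late in abscission, was at 11.7, 12.1, 9.38 and 8.65 FPKM, and KIF14, which binds citron kinase at the midbody, at 4.96, 4.56, 4.01 and 2.78 FPKM. Neither gene's groups overlapped, with log2 fold changes of -0.37 and -0.40, and the interval of KIF14 reached 0.06.

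**Figure D3:**
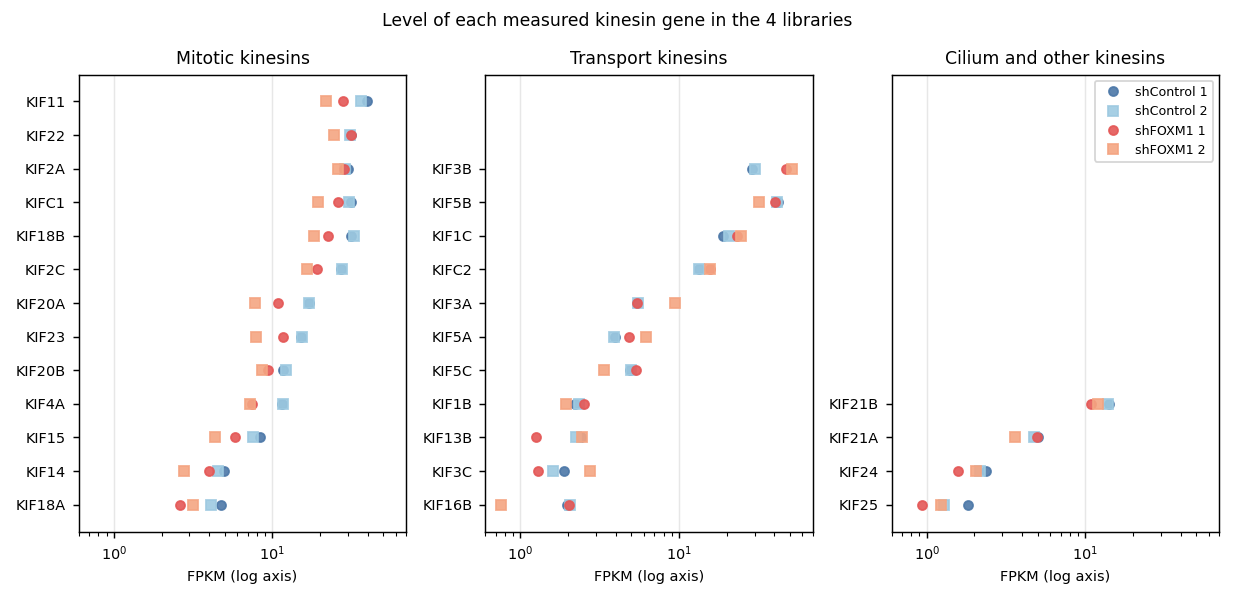
FPKM (log axis) of each measured kinesin gene in the 4 libraries, with shControl and shFOXM1 libraries in different colours and genes grouped by class. In 12 of 13 mitotic genes both shFOXM1 points lie below both shControl points, and in KIF3B both lie above.

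Transport kinesins gave no single direction. The kinesin-2 subunit KIF3B, which pairs with KIF3A to carry cargo and to build cilia, ranked 6 among the 42 kinesins by mean level in the controls and 1 in shFOXM1 (ENSG00000101350, plus strand of chromosome 20 from 32277664 to 32335011 in GRCh38). It was at 28.7 and 30.1 FPKM in the controls against 47.5 and 51.6 FPKM in the shFOXM1 pair. Both shFOXM1 libraries lay above both controls, at 49.6 ± 2.9 against 29.4 ± 0.987 FPKM (SD, n = 2 each), a ratio of shFOXM1 to shControl of 1.69. The log2 fold change was 0.73 (SE 0.11, 95% interval 0.45 to 1.01), with an adjusted p = 0.173 in limma (0.00118 before adjustment).

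The partners of KIF3B within kinesin-2 did not share one pattern. KIF3A was at 5.42 and 5.48 FPKM in the controls against 5.48 and 9.41 FPKM in the shFOXM1 pair, so that shFOXM1 1 matched the controls and shFOXM1 2 was higher. KIF3C, an alternative partner of KIF3A, was at 1.89, 1.6, 1.29 and 2.75 FPKM, with the shFOXM1 libraries on either side of the controls. KIFAP3, the adaptor that completes the trimer and is no kinesin itself, was at 7.32 and 7.52 FPKM in the controls against 13.2 and 12.7 FPKM in the shFOXM1 pair. Its groups did not overlap, and its log2 fold change of 0.72 (SE 0.11, 95% interval 0.44 to 1.01; limma, adjusted p = 0.173) was close to that of KIF3B. KIF17, which works in cilia and dendrites, stayed between 0.0881 and 0.197 FPKM and was not tested.

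Kinesin-1 is the classical carrier of vesicles and mitochondria, and KIF5B is its heavy chain in most tissues. KIF5B was at 42.4 and 41.3 FPKM in the controls against 40.4 and 32 FPKM in the shFOXM1 pair, lower without overlap but by little in shFOXM1 1, with a log2 fold change of -0.21 (95% interval -0.59 to 0.16). KIF5A, a heavy chain known from neurons, was at 3.94 and 3.91 against 4.81 and 6.25 FPKM, higher without overlap, with a log2 fold change of 0.40 (95% interval -0.0041 to 0.80). KIF5C, the other neuronal heavy chain, was at 4.91 and 4.97 against 5.34 and 3.37 FPKM, with overlap. The markers of neurons summed to 0.56 to 0.78 FPKM in the 4 libraries, 0 of 5 were measured and SNAP25 was at 0.

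In kinesin-3 the highest gene by far was KIF1C, which carries vesicles and integrins. It was at 19 and 20.8 FPKM in the controls against 23.2 and 24.7 FPKM in the shFOXM1 pair, higher without overlap, with a log2 fold change of 0.26 (95% interval -0.04 to 0.55). KIF1B, a carrier of mitochondria and synaptic vesicle precursors, was at 2.22, 2.34, 2.54 and 1.93 FPKM. KIF13B was at 2.4, 2.24, 1.26 and 2.45 FPKM, and KIF16B, which moves early endosomes, at 1.97, 2.07, 2.02 and 0.756 FPKM. The groups of all 3 low genes overlapped, and KIF16B was low in shFOXM1 2 alone. KIF1A, a carrier in axons, had 1 to 4 reads, and KIF13A had 0 reads, which allows up to 0.019 FPKM.

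Of the C-terminal motors, KIFC2 was at 13.4 and 13.4 FPKM in the controls against 15.6 and 15.8 FPKM in the shFOXM1 pair. It was higher without overlap, and the log2 fold change was 0.22 (95% interval -0.05 to 0.49). KIFC2 shares 791 exon bases with FOXH1 on the other strand, which stood at 0.298 to 0.54 FPKM, and the strand setting of the counting is not given. KIFC3 had 0 to 6 reads per library and was not tested.

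The 4 other measured kinesins all had a lower mean in shFOXM1. KIF21B, which slows microtubule growth and is known in T cells for shaping the microtubules that turn the centrosome toward a target cell, was at 14.1 and 14 FPKM in the controls against 10.9 and 12 FPKM in the shFOXM1 pair. The controls had an SD of 0.0707 FPKM (n = 2), both shFOXM1 libraries were lower, and the log2 fold change was -0.27 (95% interval -0.57 to 0.02; limma, adjusted p = 0.308). Its relative KIF21A was at 4.99, 4.78, 4.92 and 3.59 FPKM and overlapped. KIF24, which restrains the growth of cilia from the centriole, was at 2.38, 2.16, 1.56 and 2.03 FPKM, and KIF25 at 1.81, 1.29, 0.936 and 1.23 FPKM, both without overlap. KIF24 was the non-mitotic kinesin outside the transport class with a CHR in its promoter window. KIF24 shares 143 exon bases with UBAP1 on the other strand, at 11.8 to 18.9 FPKM, and KIF25 shares 207 with KIF25-AS1.

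The remaining members gave little or no signal. KIF27, a relative of KIF7, came nearest to the filter at 0.932, 0.963, 0.894 and 1.07 FPKM. KIF9, which acts in motile cilia, was at 0.301 to 0.651 FPKM, and KIF7, a regulator of Hedgehog signalling in cilia, at 0.108 to 0.24 FPKM. KIF19 and KIF26A had at most 2 reads and KIF26B at most 4 in any library, and KIF12 and KIF6 had 0 reads throughout, allowing up to 0.0696 and 0.0178 FPKM. In all, 14 kinesins had a mean of at least 10 FPKM and 14 a mean of 1 to 10 FPKM, while 10 lay above 0 but below 1 FPKM and 4 were at 0.

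Summed over the family, the share of kinesin messenger RNA held by mitotic motors was lower in shFOXM1. The mitotic sum was 264 and 259 FPKM in the controls against 207 and 168 FPKM in the shFOXM1 pair. As a share of all kinesin FPKM that was 63.6 and 62.9% against 55.0 and 49.5%, or 63.3 ± 0.454% against 52.2 ± 3.89% (SD, n = 2 each). The transport sum was 126 and 129 FPKM in the controls against 150 and 151 FPKM in the shFOXM1 pair. Nearly all of that gap was KIF3B: without it, the transport sum was 97.6, 98.4, 102 and 99.5 FPKM. This remainder is a net sum, in which KIF5B and others had a lower mean in shFOXM1 and KIF1C, KIFC2 and others a higher one. With 2 libraries against 2, an exact permutation test cannot give a two-sided p below 0.333, so none was run on these sums.

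**Figure D4:**
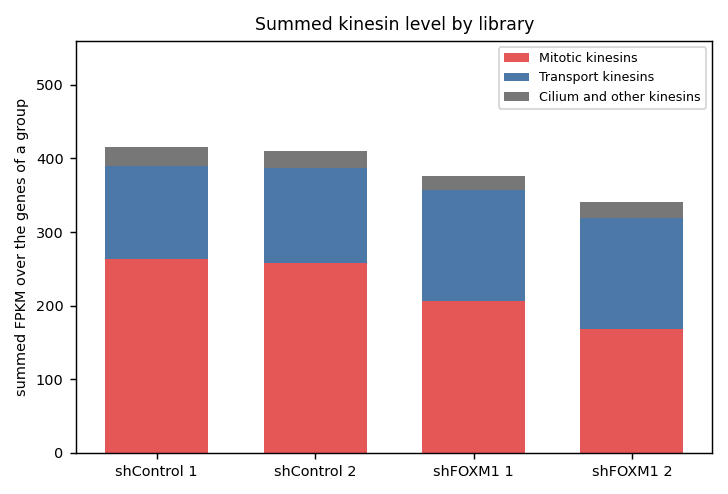
Summed FPKM of mitotic, transport and other kinesins in each of the 4 libraries, stacked from 0. The mitotic part is 264 and 259 FPKM in the controls against 207 and 168 FPKM in the shFOXM1 pair, and the transport part 126 to 151 FPKM.

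Taking mitotic against transport motors, the difference of the class medians was -0.66 on the log2 scale. Measured in each shFOXM1 library against the control mean, the mitotic median was -0.39 for the first and -0.65 for the second, with 0.09 and 0.23 for the transport median. Both libraries had the mitotic class below the transport class, by -0.49 and -0.88. Genes are not replicates, and no test was made between the classes.

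How many kinesins passed the test depended on which library was left out. Without shFOXM1 1, limma called 14 kinesins lower and 3 higher, beside 14.5% and 11.3% of all genes tested. The lower calls were 11 mitotic kinesins and KIF16B, KIF5B and KIF5C, and the higher calls KIF3A, KIF3B and KIF5A. Without shFOXM1 2, it called KIF18B, KIF20A, KIF2C and KIF4A lower and KIF3B higher, beside 2.95% and 2.34% of all genes tested. These 5 genes were thus called whichever shFOXM1 library was left out, with the spread taken from the controls alone and the lone shFOXM1 library assumed to vary like them. Without either shControl library limma called 0 kinesins. Limma's adjusted p over all the alternatives ran from 0.0127 to 0.926 for KIF3B and from 0.0122 to 0.926 for KIF20A.

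The messenger RNAs of proteins that work with mitotic kinesins mostly stood lower too. Of 14 such partners, 13 were measured, 12 of these were lower without overlap, and 7 were lower at an unadjusted p under 0.05, beside 25.9% and 8.99% of all genes tested. Their median log2 fold change was -0.49, and 0 were called. AURKB, the kinase of the chromosomal passenger complex that KIF20A carries, was at 55.9 and 57.3 FPKM in the controls against 40.7 and 35.1 FPKM in the shFOXM1 pair. INCENP, its scaffold, was at 29.4, 27.7, 21.7 and 20.9 FPKM. PLK1, the Polo kinase that docks on KIF20A, was at 26.7 and 26.6 against 19.9 and 16.2 FPKM. CENPE, a kinesin of the kinetochore whose symbol keeps it out of the family list here, was at 7.58, 6.93, 5.32 and 4.31 FPKM. The log2 fold changes of these 4 genes lay between -0.57 and -0.40. PRC1, the midzone partner of KIF4A, was under the filter at 0.202 to 0.446 FPKM, and it overlaps another protein-coding gene on the same strand, AC068831.7, at 1.03 to 1.37 FPKM.

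The partners of transport kinesins and the opposing motor, dynein, stood mostly the other way. Of 15 transport partners, 12 were measured, 11 had a higher mean and 9 were higher without overlap, beside 50.7% and 27.3% of all genes tested. Their median log2 fold change was 0.22, and 0 were called. Beside KIFAP3, KIF1BP, which holds some kinesins off the microtubule, was at 7.3 and 7.16 FPKM in the controls against 12.6 and 11.5 FPKM in the shFOXM1 pair, a log2 fold change of 0.67. KLC2, a kinesin-1 light chain, was at 15.5 and 16 against 23 and 22.8 FPKM, and MAPK8IP3, a cargo adaptor, at 9.13 and 9.62 against 12.3 and 12.6 FPKM. All 4 were without overlap, while the KIF5 heavy chains that KLC2 joins had log2 fold changes of -0.21, 0.40 and -0.17. Dynein and dynactin had 21 of 23 subunits and regulators measured, with 15 higher without overlap, and 7 higher at an unadjusted p under 0.05, beside 27.3% and 8.82% of all genes tested. Their median was 0.28, and 0 were called. Examples were the dynactin subunit DCTN4 (6.29 and 6.76 against 10.9 and 13.6 FPKM) and the dynein heavy chain DYNC1H1 (7.4 and 8.03 against 10.8 and 11.3 FPKM). The dynein intermediate chain DYNC1I2 was at 6.2 and 5.26 against 8.69 and 9.88 FPKM, and the light chain DYNLRB1 at 18.5 and 20.4 against 27.1 and 27.8 FPKM. The list's member that was lower without overlap was NDE1, a dynein regulator known from mitosis, with a log2 fold change of -0.31.

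**Figure D5:**
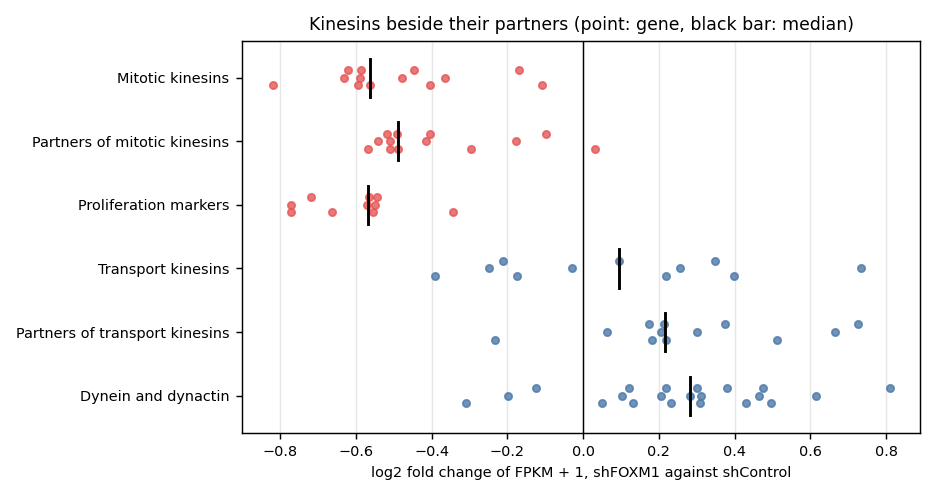
Log2 fold change (shFOXM1 minus shControl, log2(FPKM + 1) scale) of single genes in the mitotic and transport kinesin classes and in their partner, dynein and dynactin, and proliferation lists, with the list median marked. The medians are -0.56 and -0.49 for mitotic kinesins and partners, 0.09, 0.22 and 0.28 for transport kinesins, transport partners and dynein, and -0.57 for proliferation markers.

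Markers of proliferation stood lower beside the mitotic kinesins. All 10 were lower in shFOXM1 without overlap, and 9 were lower at an unadjusted p under 0.05, beside 25.9% and 8.99% of all genes tested. Limma called 0 of them, and their median log2 fold change was -0.57. Their summed level was 903 and 865 FPKM in the controls against 634 and 534 FPKM in the shFOXM1 pair. MKI67 was at 45, 45.3, 31.5 and 25.2 FPKM, and MCM3, a subunit of the replicative helicase, at 133, 125, 82.1 and 74.4 FPKM. In bulk RNA, fewer dividing cells and less kinesin messenger RNA per dividing cell cannot be told apart. The B cell marker CD79A and the keratinocyte marker CDH1 made up most of their lists' sums of 7.8 and 8.36 FPKM in shFOXM1 2, against 0.378 and 2.4 FPKM in shFOXM1 1, and their part in the results was not tested.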

How the data were processed

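The authors deposited one table of FPKM for 4 libraries, with gene lengths, per the file headers. Per the labels' protocols, libraries were made with a SMARTER mRNA kit from column-purified RNA. For the aligner, the counter and strandedness, the tool or setting is not given in the sources used here. All 58735 starts and ends equal human GENCODE 29 (GRCh38), although GRCm38 and mm10 are the builds in the submitters' processing notes. The columns named sh0 were taken as shControl, and sh1 and sh2 as shFOXM1, with 0 columns of other samples. Multiplied by gene length, 100% of FPKM values came out as whole reads (tolerance 0.001 read). Replicates differed beyond sampling noise (chi-square) and were kept as separate samples.

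The test was limma 3.58.1 (R 4.3.3; two-sided, moderated with a trend) on log2(FPKM + 1), a scale that understates the change of low genes, for genes that reached 1 FPKM in 2 or more libraries. The code was tested on simulated data with the same spread in both groups, and only the recovery of the fold change was required, not that of the calls. The named genes are FOXM1, every kinesin of the rule, and up to 4 members per partner, dynein and proliferation list with the smallest unadjusted p, and genes outside it (the neighbours, PRC1, NDE1 and cell markers) were chosen after their values were seen. The family, its classes and the lists were chosen with earlier results of these data known. Promoter windows are RefSeq's, and the last 20 bases of 10 of 12 checked windows lie in a GENCODE transcript of the gene (not those of KIF11 and KIF18B). Protein sequences were not used here. Alternatives were a pseudocount of 0.1, no filter, a filter at a mean of 5 FPKM, quantile normalization, no trend, voom on recovered reads, a replicate block and each library left out.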

Additional observations from a re-analysis of the deposited data

How the results depend on the processing

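No alternative that kept all 4 libraries called a kinesin (pseudocount, filters, quantile normalization, no trend, voom, replicate block). Leaving out a library gave 0 to 17 called, 5 of them without shFOXM1 2. Of 297 single-kinesin values under alternatives, 268 kept their direction and side of the threshold and 22 passed it, all 22 with a library left out, and 7 changed sign. Those 7 were KIF22 (0.0042), KIF5C (0.095), KIF3C (-0.26), KIF1B (0.11), KIF16B (0.00011) and KIF21A (0.0091) without shFOXM1 2, and KIF13B (0.0545) without shFOXM1 1, with ranges over left-out libraries of -0.34 to 0.0042, -0.44 to 0.095, -0.26 to 0.45, -0.16 to 0.11, -0.78 to 0.00011, -0.36 to 0.0091 and -0.55 to 0.0545 in that order. The FOXM1 log2 fold change ran from -2.09 (limma adjusted p = 0.0122) to -1.45 (limma adjusted p = 0.0331) with a shFOXM1 library left out, and its adjusted p over all alternatives from 0.0122 to 0.753.

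The mitotic median ran from -0.65 to -0.39 with a library left out, the transport median from 0.0172 to 0.23, the median of other kinesins from -0.34 to -0.16, and mitotic minus transport from -0.88 to -0.49. With no filter the transport median was 0.0125 and the median of other kinesins -0.0415. With a mean of at least 5 FPKM the transport median was 0.26. Joining the transport and other classes gave a mitotic difference of -0.39. The cause of these moves was not tested. Chosen after seeing the data, the counts without overlap under each of the other scalings were 13 for lower mitotic kinesins and 4 for higher transport kinesins. With a library left out they were 12 to 13 and 4 to 7, with 7 without shFOXM1 1. Leaving out a library cannot lower such a count, so these values do not measure its stability, and the share of all genes was not computed for them.

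The replicate numbers share no stated origin, and the deviations of same-numbered libraries from their group means had a correlation of 0.04. With 2 libraries a group the pairs mirror each other (-0.04 for crossed numbers), so this is a single value. With the replicate block, 0 kinesins were called, the mitotic median was -0.56, the transport median 0.09 and the median of other kinesins -0.25. With 2 libraries a group, differences of low genes such as KIF3C or KIF16B were not detectable beyond the replicate spread.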

Other observations

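Of the measured kinesin genes, 6 share their start region with a protein-coding gene read in the opposite direction, with starts within 1000 bases of each other. Beside KIF4A, PDZD11 was at 11.5 and 11.9 FPKM in the controls against 19.2 and 14.2 FPKM in the shFOXM1 pair, higher without overlap, with a log2 fold change of 0.46 where KIF4A had -0.59. Beside KIF20A, the bromodomain gene BRD8 was at 7.95, 8.42, 8.19 and 12.3 FPKM, with a log2 fold change of 0.27 where KIF20A had -0.82. KIF15 and KIAA1143, whose starts lie 55 bases apart, both had a lower mean, with log2 fold changes of -0.56 and -0.25, and both shFOXM1 libraries lay below both controls for each gene. KIF18A and the methyltransferase gene METTL15 start 60 bases apart and had -0.48 and 0.05. Among transport motors, KIF1C had 0.26 beside 0.10 for INCA1, and KIFC2 had 0.22 beside 0.16 for CYHR1. None of these neighbours passed limma's test, and the difference within each pair was not tested. KIF20A shares 132 exon bases with BRD8, KIF4A 77 with PDZD11 and KIF18A 61 with METTL15 on the other strand, where reads cannot be told apart without a strand setting.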
